A study of Mus musculus with 15 samples.

Results

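The genes described here are those that were almost silent or low in colon cancer organoids re-derived from primary tumours and well expressed in every organoid library from liver metastases of rounds 2 and 3. They were chosen from the expression values themselves. A count divided by its library's total and multiplied by 1000000 gives the CPM value, and a protein-coding gene was taken if it had at least 2 CPM in all 6 libraries of the Met2 and Met3 groups and if its lowest value there was at least 4 times its highest value in the 6 libraries of Primary2 and Primary3. Of 21864 protein-coding genes in the table, 15 met this rule (0.0686%), and they were 0.153% of the 9793 protein-coding genes with at least 2 CPM in all 6 later metastasis libraries. The 14 described here one by one are Ptges, Epgn, Ptprz1, Lingo2, Stk39, Apobec1, Greb1, Trim10, Fundc2, Clip4, Omp, Adig, 1700025G04Rik and Gm1673. Since the rule used the difference between later metastases and primary tumours, that difference is given below as a description and carries no test. The level in the first round metastases (Met1) took no part in the rule.

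All 15 libraries came from mouse colon cancer organoids, cultures grown as small bodies of tumour epithelium, of the AKP genotype, whose alleles the labels do not spell out, with C57Bl6 recipient mice. Organoids were made from liver metastases and from primary tumours after transplantation into the colon of immunocompetent mice, and were transplanted again over several rounds. Met1, Met2 and Met3 are organoids from liver metastases of rounds 1, 2 and 3, and Primary2 and Primary3 are organoids from primary tumours of rounds 2 and 3, with 3 libraries in each group. No primary group of round 1 was analysed here, so Met1 has no matched control. The labels do not say whether the 3 replicates of a group were different mice, different lines or parallel cultures, so the p-values below measure only the spread between these samples.

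Total estimated counts per library ran from 14122203 to 21306543, so that 3 counts correspond to 0.141 to 0.212 CPM. A ribosomal RNA gene took 2.01% to 7.52% of the counts. A single library stood apart from its group. Met2 replicate 1 had a Pearson correlation of log2 CPM, across genes, of 0.907 and 0.894 with the other Met2 libraries, while all other replicate pairs lay between 0.956 and 0.976. Markers of colon epithelium were abundant throughout (9 of 10 above 1 CPM). Their summed level was 11540 to 14050 CPM in Met1, 5401 to 14487 CPM in Met2 and 12066 to 15267 CPM in Met3. It was 6160 to 8456 CPM in Primary2 and 7598 to 7889 CPM in Primary3. The leukocyte list, with 3 of 7 markers above 1 CPM, summed to 20.7 to 29.5 CPM in Met1, 8.06 to 13.9 CPM in Met2 and 15.9 to 22.5 CPM in Met3. In Primary2 that list summed to 6.56 to 12.2 CPM and in Primary3 to 8.85 to 19.2 CPM. The hepatocyte list had 1 of 8 markers above 1 CPM, Alb, and its summed level was 1.34 to 6.59 CPM in Met1, 0.185 to 0.269 CPM in Met2, 0.0512 to 0.693 CPM in Met3 and at most 1.06 CPM in the primary groups.

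As background, liver metastasis of colon cancer asks tumour cells to leave the colon epithelium, survive in the circulation and grow in a foreign organ; the transplant rounds take organoids through this route repeatedly. The 15 genes belong to no single pathway. Some act in signals with known parts in the intestine, such as prostaglandin E2, which acts on epithelial stem cells and immune cells, and the epidermal growth factor (EGF) family, whose ligands drive epithelial growth through the receptors Egfr and Erbb2 to Erbb4. Others are best known from neurons, glia, fat or blood precursors, where their usual expression has been studied.

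Promoter sequence was available for 13 of the 15 genes, as RefSeq windows of 300 bases in the GRCm38.p6 build, from 250 bases before to 50 bases after an annotated start, and 17 windows in all. The windows of 4 genes are shown because they differ widely in CpG content, from a dense CpG island to a window with few CpG, and because Epgn and Fundc2 have neighbours described below. Capitals mark CpG dinucleotides. The Stk39 window lies at chr2:68471932-68472231 on the minus strand and holds 49 CpG. The Fundc2 window, at chrX:75382149-75382448 on the plus strand, holds 14. The Epgn window is chr5:91027267-91027566 on the plus strand with 5 CpG, and the Trim10 window is chr17:36869324-36869623 on the plus strand with 2 CpG.
Stk39: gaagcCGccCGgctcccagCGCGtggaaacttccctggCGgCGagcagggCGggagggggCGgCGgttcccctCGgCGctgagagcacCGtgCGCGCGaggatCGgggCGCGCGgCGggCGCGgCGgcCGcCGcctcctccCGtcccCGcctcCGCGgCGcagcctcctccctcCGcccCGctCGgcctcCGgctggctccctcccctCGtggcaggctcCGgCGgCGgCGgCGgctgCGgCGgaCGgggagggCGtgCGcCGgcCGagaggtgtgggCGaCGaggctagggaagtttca
Fundc2: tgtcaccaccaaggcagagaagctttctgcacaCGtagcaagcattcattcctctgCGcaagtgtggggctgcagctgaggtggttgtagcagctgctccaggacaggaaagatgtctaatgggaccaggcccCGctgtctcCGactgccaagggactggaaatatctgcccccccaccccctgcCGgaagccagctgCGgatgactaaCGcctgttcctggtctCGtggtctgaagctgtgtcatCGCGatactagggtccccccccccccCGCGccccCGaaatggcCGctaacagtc
Epgn: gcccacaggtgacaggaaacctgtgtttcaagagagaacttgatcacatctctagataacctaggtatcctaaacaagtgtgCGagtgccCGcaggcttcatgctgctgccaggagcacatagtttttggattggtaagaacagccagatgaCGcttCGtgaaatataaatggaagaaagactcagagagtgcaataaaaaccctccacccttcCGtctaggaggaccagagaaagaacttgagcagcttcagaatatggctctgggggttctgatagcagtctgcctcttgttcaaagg
Trim10: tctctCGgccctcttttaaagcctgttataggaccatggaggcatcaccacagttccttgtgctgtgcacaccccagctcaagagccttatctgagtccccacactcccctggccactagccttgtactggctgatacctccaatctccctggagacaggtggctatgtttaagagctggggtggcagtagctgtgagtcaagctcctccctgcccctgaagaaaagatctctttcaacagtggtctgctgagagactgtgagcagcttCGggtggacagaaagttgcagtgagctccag

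A pair of genes of the set make secreted signals. Ptges (chromosome 2, 30889471 to 30929863, minus strand, GRCm38) encodes microsomal prostaglandin E synthase-1, the enzyme that converts prostaglandin H2 to prostaglandin E2. Ptges stood at 7.17, 13.1 and 10.9 CPM in Primary2 and at 7.65, 16.2 and 18.7 CPM in Primary3. In Met2 the Ptges libraries had 141, 210 and 221 CPM, and in Met3 174, 164 and 163 CPM. The gene was therefore expressed in the primary lines too, at a low level, and every later metastasis library was at least 7.53 times the highest primary library. Met1 gave 144, 32.8 and 18.5 CPM for Ptges, so its libraries ran from within the primary range to within the later metastasis range, and their mean of 65.1 ± 68.7 CPM (SD, n = 3) was smaller than its SD. Among the metastasis groups, Met3 varied least, at 167 ± 6.16 CPM (SD, n = 3). Of the enzymes around Ptges in prostaglandin metabolism, looked up after the set was known and not tested, the cyclooxygenase Ptgs1 averaged 41.1 ± 14.2 CPM in the later metastases and 327 ± 97.5 CPM in the primary lines (SD, n = 6 each). The inducible cyclooxygenase Ptgs2 averaged 28.2 ± 23.4 and 57.7 ± 23.1 CPM. The phospholipase Pla2g4a, which frees arachidonic acid, averaged 94.1 ± 33.0 and 32.7 ± 8.71 CPM. Hpgd, which breaks prostaglandin E2 down, averaged 6.03 ± 4.91 and 23.5 ± 8.70 CPM. The other prostaglandin E synthase genes averaged 20.7 and 22.8 CPM (Ptges2) and 176 and 180 CPM (Ptges3).

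Epgn (chromosome 5, 91027464 to 91035215, plus strand) encodes epigen, an EGF-family ligand of Egfr. Epgn had 0.111, 0.188 and 0.102 CPM in Primary2 and 0.354, 0 and 0.400 CPM in Primary3, which is 20 counts over all 6 libraries. It reached 12.4, 6.72 and 33.9 CPM in Met2 and 8.47, 11.6 and 6.66 CPM in Met3. The lowest later metastasis library was 16.6 times the highest primary one, the widest gap in the set. In Met1 only replicate 1 had more than a trace of Epgn, with 3.68 CPM, and replicates 2 and 3 had 0.0534 and 0.142 CPM. All 3 Met1 libraries were below all later metastasis libraries. Of the 14 other genes in the fixed list of EGF-family ligands and ERBB receptors, 8 were tested between later metastases and primary lines, a test added after the design was fixed, in which 30.4% of all genes were called. Of these, 4 were higher and 1 was lower, with a median log2 change of 0.40 against 0.01 over all genes (edgeR's quasi-likelihood test, adjusted p under 0.05). Areg, amphiregulin, rose by 3.08 (log2, SE 0.35, adjusted p = 0.000115), Erbb3 by 0.80 (SE 0.22, adjusted p = 0.0154), Btc, betacellulin, by 0.72 (SE 0.22, adjusted p = 0.0263) and Tgfa by 0.49 (SE 0.15, adjusted p = 0.0286). Ereg, epiregulin, fell by 6.40 (SE 0.78, adjusted p = 0.000151). The calls of Btc and Tgfa were lost without either Primary2 replicate 1 (adjusted p = 0.0512 and 0.0627) or Primary2 replicate 3 (0.055 and 0.0534), which leaves 3 calls. The Btc call was also lost without Met3 replicate 3 (0.0536), and the Tgfa call without Met2 replicate 3 (0.0542) or Met3 replicate 2 (0.0703). Egfr changed by 0.31 (SE 0.24, adjusted p = 0.352), within the spread.

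A further pair encodes surface proteins known mainly from the nervous system. Ptprz1 (chromosome 6, 22875502 to 23052916, plus strand) is a receptor tyrosine phosphatase of glia that binds pleiotrophin. Its primary values were 1.83, 1.5 and 1.02 CPM in Primary2 and 1.06, 0.806 and 0.400 CPM in Primary3. Met2 had 10.4, 8.08 and 35.5 CPM of Ptprz1, and Met3 had 16.4, 38.3 and 15.5 CPM. 1 library in each later round, Met2 replicate 3 and Met3 replicate 2, lay well above the rest. Ptprz1 was the one gene of the set whose 3 Met1 libraries (1.37, 1.82 and 0.142 CPM) were all at or below its highest primary value of 1.83 CPM. The pleiotrophin gene itself, Ptn, exceeded 0.102 CPM in 1 later metastasis library only, Met2 replicate 1, at 347 CPM, and averaged 0.0328 CPM in the other 5 and 0.488 CPM in the primary lines.

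Lingo2 (chromosome 4, 35706647 to 36951747, minus strand) encodes a neuronal membrane protein with leucine-rich repeats and an immunoglobulin domain. It had 10 counts over the 6 primary libraries, at 0, 0.0939 and 0.357 CPM in Primary2 and 0.0708, 0 and 0 CPM in Primary3. Met2 gave 3.24, 7.03 and 2.35 CPM and Met3 4.42, 3.87 and 4.04 CPM. Lingo2 thus passed the 2 CPM limit by a small margin, and per kilobase of exon it was the lowest of the set, at 0.501 CPM per kb in the later metastases. Met1 covered the whole gap, with 2.36, 0.748 and 0.237 CPM. The related Lingo1, Lingo3 and Lingo4 were each at or below 0.065 CPM on average in both kinds of line. Of 7 markers of neurons and enteric glia, Tubb3 and Snap25 exceeded 1 CPM in any library, and Elavl4 and Sox10 had no count anywhere. The summed level of that list was 1.39 to 4.01 CPM in Met2, 3.58 to 6.24 CPM in Met3, 2.25 to 9.93 CPM in Primary2 and 3.78 to 7.36 CPM in Primary3, with overlap between metastasis and primary libraries.

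Stk39 (chromosome 2, 68210445 to 68472268, minus strand) encodes the kinase SPAK, which is switched on by WNK kinases and phosphorylates sodium and potassium chloride cotransporters. Stk39 was nearly absent from the primary lines, with 8 counts in all, 4 libraries at 0 and the others at 0.329 CPM (Primary2 replicate 2) and 0.0708 CPM (Primary3 replicate 1). It had 51.5, 25.8 and 3.89 CPM in Met2 and 12.9, 28.0 and 5.99 CPM in Met3. The spread among the later metastases was wide, with the highest library 13.2 times the lowest. The gene was already present in Met1, at 35.6, 45.5 and 4.12 CPM (28.4 ± 21.6, SD, n = 3), and all 3 Met1 values lay within the later metastasis range. Its promoter window, the first of the sequences printed above, was also the densest in CpG. Of the 14 other genes in the fixed list of the WNK and SPAK pathway, 11 were tested, 2 were higher and 3 lower, with a median log2 change of 0.14. Cab39, a scaffold that activates SPAK, rose by 0.41 (SE 0.09, adjusted p = 0.00442) and its relative Cab39l by 0.29 (SE 0.09, adjusted p = 0.0297). The cotransporter Slc12a2, a SPAK substrate, fell by 0.76 (SE 0.15, adjusted p = 0.00233), and the kinase Wnk3 fell by 2.50 (SE 0.58, adjusted p = 0.00639). The 5 calls dropped to 3 without a low-count filter, without Primary2 replicate 3 and without Primary3 replicate 1. The Cab39l call was lost in 5 of 19 alternatives (highest adjusted p = 0.131).

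Apobec1, Greb1 and Trim10 act on RNA, on transcription or on protein turnover. Apobec1 (chromosome 6, 122577792 to 122602444, minus strand) is the cytidine deaminase that edits the messenger RNA of apolipoprotein B in the small intestine. Apobec1 had 1.94, 1.5 and 1.43 CPM in Primary2 and 1.35, 0.930 and 1.14 CPM in Primary3. It had 25, 20.8 and 22.4 CPM in Met2 and 42.5, 50.4 and 19.7 CPM in Met3. The primary libraries were close together, and the later metastases stood at least 10.1 times above them. Met1 lay between, with all 3 libraries (16.6, 9.35 and 5.16 CPM) above every primary and below every later metastasis library. No other gene of the set had this clean intermediate position. Its editing partner Rbm47, in a list added later and not tested, averaged 30.3 ± 7.09 CPM in the later metastases and 24.5 ± 2.13 CPM in the primary lines. A1cf, another editing cofactor of that list, was nearly absent, with 6 counts over all 15 libraries. The main editing target Apob averaged 0.029 CPM in the later metastases and 6.33 ± 11.5 CPM in the primary lines, or 1.63 CPM there without Primary2 replicate 1, which had 29.8 CPM.

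Greb1 (chromosome 12, 16670615 to 16800886, minus strand) encodes a cofactor and classical target of the oestrogen receptor. Greb1 had 2.11, 4.88 and 1.53 CPM in Primary2 and 3.89, 0.248 and 2.63 CPM in Primary3. It had 89.5, 33.4 and 37.7 CPM in Met2 and 62.8, 23.8 and 22.3 CPM in Met3. Met1 was higher than either, at 161, 128 and 115 CPM. The group means were 135 ± 23.3 CPM in Met1, 53.5 ± 31.2 CPM in Met2 and 36.3 ± 22.9 CPM in Met3 (SD, n = 3 each), and the difference between Met2 and Met3 was within the spread. Greb1 was the one gene of the set with all 3 Met1 libraries above all 6 later metastasis libraries. The oestrogen receptor gene Esr1, looked up later and not tested, averaged 6.24 ± 1.56 CPM in the later metastases, 9.41 ± 1.48 CPM in the primary lines and 13.8 CPM in Met1. The related Greb1l averaged 1.87 ± 1.20 and 10.4 ± 3.17 CPM.

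Trim10 (chromosome 17, 36869574 to 36877833, plus strand) encodes a tripartite-motif RING protein studied in red cell development. Trim10 had 0.445, 0.939 and 0.713 CPM in Primary2 and 1.56, 0.620 and 1.49 CPM in Primary3. It had 16.8, 17.6 and 19.9 CPM in Met2 and 24.5, 18.6 and 17.4 CPM in Met3. These later values varied less than those of any other gene of the set, with a coefficient of variation of 14.8% and the highest library 1.45 times the lowest. Met1 gave 23.4, 9.35 and 16 CPM, all above every primary library. Its promoter window, printed above, holds 2 CpG and is the poorest in CpG among the genes with a single window.

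Fundc2 and Clip4 encode proteins of organelles and the cytoskeleton. Fundc2 (chromosome X, 75382399 to 75396459, plus strand) is a protein of the outer mitochondrial membrane. Fundc2 behaved nearly as present or absent in single libraries. It had 0, 0.469 and 0 CPM in Primary2 and 0, 0.124 and 6.34 CPM in Primary3, where replicate 3 stood apart. It had 81.3, 65.5 and 54.0 CPM in Met2 and 54.4, 58.2 and 59.8 CPM in Met3, with a coefficient of variation of 16.5%. Met1 was split, with 63.0 and 60.6 CPM in replicates 1 and 3 and 0.214 CPM in replicate 2. The paralog Fundc1, not tested, averaged 45.2 ± 6.72 CPM in the later metastases and 46.4 ± 3.56 CPM in the primary lines.

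Clip4 (chromosome 17, 71768473 to 71864273, plus strand) encodes a protein with microtubule-binding CAP-Gly domains. It had 7 counts in the primary lines, at 0.167, 0 and 0 CPM in Primary2 and 0.0708, 0.186 and 0 CPM in Primary3. Met2 had 2.44, 19.5 and 12.8 CPM and Met3 22.3, 29.0 and 22.2 CPM. Met2 replicate 1 was the lowest of the later metastasis libraries, and the highest was 11.9 times this value. Met1 had 3.51, 0 and 0.332 CPM, so only replicate 1 reached the later metastasis range. Of the 3 other genes in the fixed CLIP family list, 2 were tested and 1 was higher. Clip2 rose by 1.46 (log2, SE 0.23, adjusted p = 0.00081), and Clip1 changed by 0.24 (SE 0.19, adjusted p = 0.364).

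Omp and Adig are named for single tissues. Omp (chromosome 7, 98143359 to 98145502, minus strand) encodes the olfactory marker protein of mature olfactory neurons. Omp had 2.61, 2.58 and 2.39 CPM in Primary2 and 2.48, 2.42 and 1.94 CPM in Primary3. It had 11.3, 13.1 and 29.9 CPM in Met2 and 20.3, 12.6 and 14.1 CPM in Met3. Primary libraries were nearly identical, and Omp was the gene closest to the ratio limit of the rule, at 4.33. Met1 lay above all primary libraries at 10.2, 8.97 and 13.6 CPM. Omp lies inside Capn5 on the same strand with no shared exon base, and Capn5 rose by 1.5 (log2, SE 0.23, adjusted p = 0.00068). In Met2 replicate 1, where Omp had 11.3 CPM, Capn5 had 93.2 CPM, within its primary range of 67.9 to 104 CPM. Whether reads of Capn5 introns reach the Omp value was not tested. Of the olfactory signalling genes looked up later, the channel gene Cnga2 had 0 CPM and Gnal averaged 1.90 and 1.71 CPM in later metastases and primary lines, while Adcy3, the adenylyl cyclase gene of this pathway, averaged 2.50 ± 2.60 and 6.47 ± 2.34 CPM (not tested).

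Adig (chromosome 2, 158502612 to 158508198, plus strand) encodes adipogenin, a small membrane protein of fat cells. Adig had 10 counts in the primary lines, at 0, 0.141 and 0.0509 CPM in Primary2 and 0.142, 0.0620 and 0.171 CPM in Primary3. Met2 had 3.90, 3.51 and 3.49 CPM, and Met3 had 5.86, 2.91 and 2.05 CPM. Met3 replicate 3 was the value closest to the 2 CPM limit. Met1 had 1.81, 2.99 and 1.23 CPM, all above the primary libraries. Among adipocyte genes, Pparg averaged 66.0 ± 22.8 CPM in later metastases and 16.3 ± 8.45 CPM in primary lines (not tested), Cebpa averaged 0.215 and 0.811 CPM, and in the later metastases Adipoq averaged 0.030 CPM and Lep 0 CPM.

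The last pair carries placeholder names. 1700025G04Rik (chromosome 1, 151852403 to 152090125, minus strand) had 2.67, 3.19 and 2.70 CPM in Primary2 and 4.25, 1.3 and 4.17 CPM in Primary3. It had 24.4, 27.3 and 26.0 CPM in Met2 and 45.6, 49.5 and 32.5 CPM in Met3. All 3 Met3 libraries were above all Met2 libraries, but the log2 difference of 0.70 (SE 0.50, adjusted p = 0.538) was within the error. Met1 had 11.7, 4.91 and 1.61 CPM. Gm1673 (chromosome 5, 33983433 to 33985013, plus strand) had 1.44, 0.751 and 1.12 CPM in Primary2 and 2.97, 0.744 and 1.37 CPM in Primary3. Gm1673 reached 13.7, 61.6 and 80.6 CPM in Met2 and 194, 92.3 and 114 CPM in Met3, the highest level per kilobase in the set at 139 CPM per kb. Met1 stayed low, with 3.18, 1.12 and 0.426 CPM, 1 of them just above the highest primary library.

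**Figure D1:**
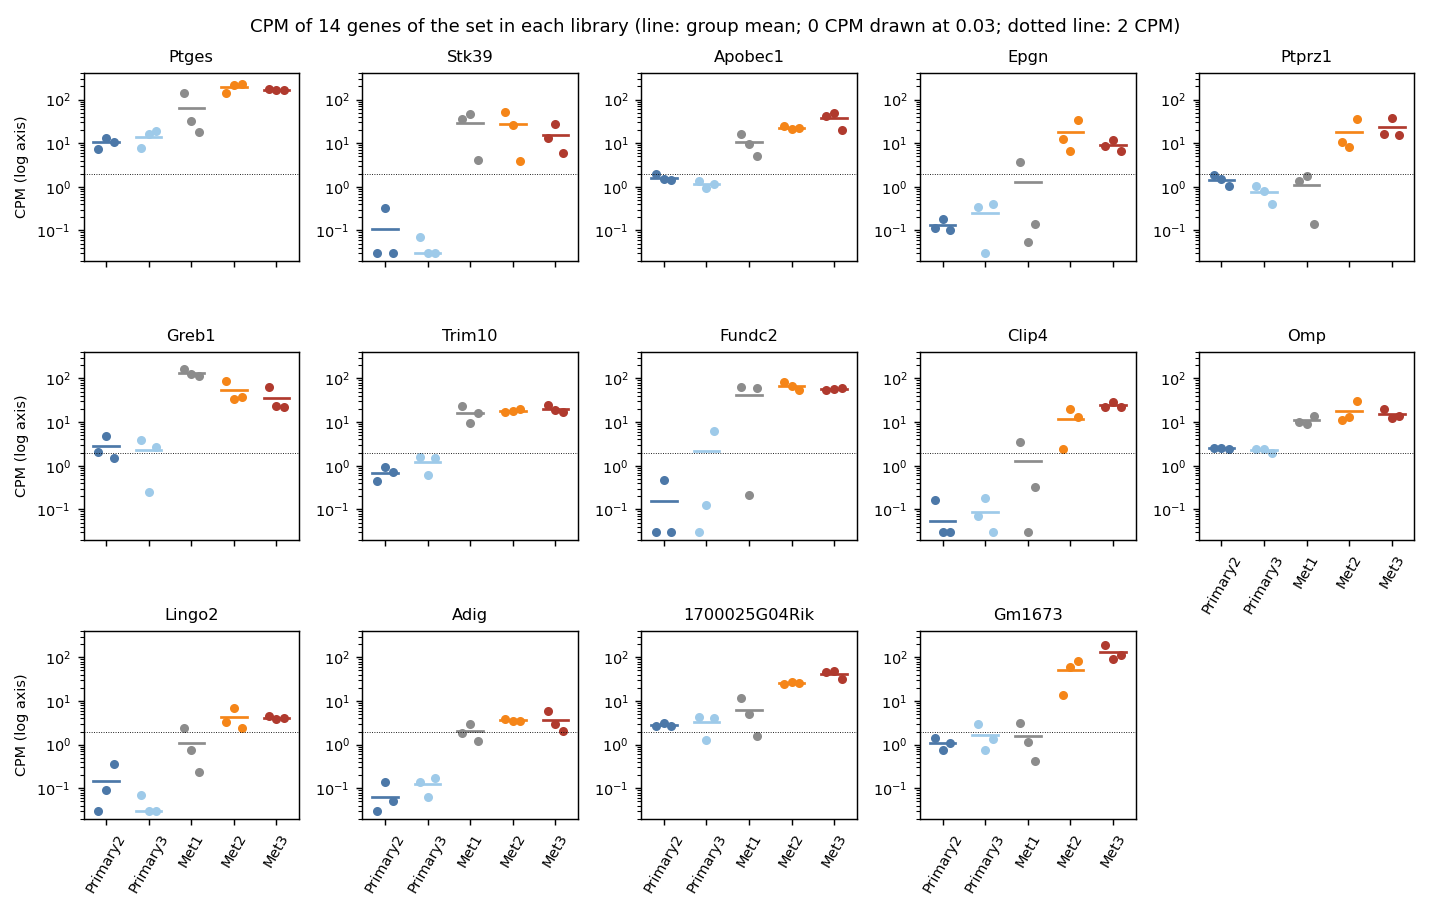
CPM of 14 genes of the set in each library on a log axis, by group; points are libraries, lines are group means, 0 CPM is drawn at 0.03 and the dotted line marks 2 CPM. The 6 later metastasis points lie above the 6 primary points in every panel, as the rule requires, while the grey Met1 points range from the primary level (Ptprz1) to above the later metastases (Greb1).

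Across the set, "switched on" describes part of the genes only. In all, 6 had at least 1 primary library with no count (Adig, Clip4, Epgn, Fundc2, Lingo2 and Stk39), and 8 were under 2 CPM in all 6 primary libraries. The other 7 had a primary library at 2 CPM or more, up to 18.7 CPM for Ptges. Just inside the ratio limit of 4 were Omp (4.33), Ptprz1 (4.40), Greb1 (4.57) and Gm1673 (4.60), and just outside were Dhrs9 (3.65), Agr2 (3.20), Arhgap45 (3.14) and Mt2 (3.12). Just inside the limit of 2 CPM were Adig (2.05), Lingo2 (2.35), Clip4 (2.44) and Stk39 (3.89), and just outside were Meis1 (1.39), St8sia4 (1.21), Ffar4 (0.925) and Ryr3 (0.925).

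Met2 replicate 1, the library that stood apart, was the lowest of the 6 later metastasis libraries for 7 of the 15 genes (46.7%), and for 28.4% of the 9793 genes with at least 2 CPM in all 6. Without it, the rule held for 34 genes, the 15 and 19 more, among them Agr2, Gata4, Dhrs9, Krt79, Ffar4 and Nat8l. Leaving out a library can only add genes, and leaving out any of the 11 others gave 15 to 18. The rule applied to round 2 alone gave 25 genes and to round 3 alone 85 genes, and 16 were in both lists, 64% of the round 2 list and 18.8% of the round 3 list. The 16 are the set and Zfp984, whose values met the ratio within each round but not across them. The mirrored rule, genes high in all primary and low in all later metastasis libraries, gave 61 genes (0.279% of protein-coding genes).

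**Figure D2:**
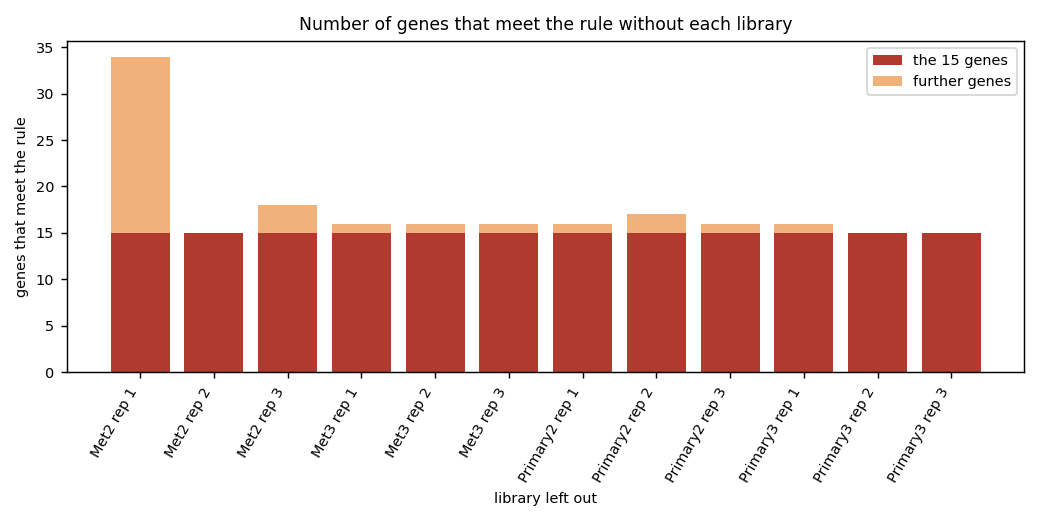
Number of genes that met the rule when 1 of the 12 later metastasis and primary libraries was left out; dark bars are the 15 genes of the set and light bars further genes. Leaving out Met2 replicate 1 gave 34 genes, and leaving out any other library gave 15 to 18.

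The Met1 libraries divided the set. All 3 Met1 libraries lay at or above the lowest later metastasis value for Greb1 and Stk39, and all 3 lay at or below the highest primary value for Ptprz1, while the other 12 genes lay between or across these limits. With TMM-scaled library sizes Stk39 and Ptprz1 lost these places by small margins. Stk39 in Met1 replicate 3 (3.97 CPM) was then below the lowest later metastasis value (4.26 CPM). Ptprz1 in Met1 replicate 2 (1.80 CPM) was then above the highest primary value (1.77 CPM). In all, 6 genes had all 3 Met1 libraries above all 6 primary libraries (Adig, Apobec1, Greb1, Omp, Stk39 and Trim10), beside 19.5% of the 9793 eligible genes. A further 6, with Apobec1 in both counts, had all 3 Met1 libraries below all 6 later metastasis libraries (among them 1700025G04Rik, Apobec1, Epgn, Gm1673 and Ptprz1), beside 6.05% of those genes. With TMM-scaled library sizes the latter count was 8, beside 11.7% of those genes. These shares are descriptions, since the rule set the ranges themselves. At least 1 Met1 library reached the later metastasis range for 9 genes. No share of the eligible genes is given for this count or for the range classes that open this paragraph, so neither is read as particular to the set. Counting Met1 among the metastases left 3 genes that met the rule: Greb1, Stk39 and Trim10.

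Within Met1 the libraries were not alike. Replicate 1 was the highest of the 3 for 11 of the 15 genes, and for 45.8% of the 9793 eligible genes. Replicate 3 was the lowest for 10 genes and replicate 2 for the other 5, and the matching shares of the eligible genes were not computed. Without replicate 1, the number of genes at or below the highest primary value was 4 in place of 1, again with no share of the eligible genes computed. Below all later metastasis libraries lay 10 genes in place of 6, beside 9.34% of the eligible genes. Among the 61 genes of the mirrored rule, all 3 Met1 libraries lay in the primary range for 6 and in the later metastasis range for 4, and the other 51 lay between or across. Without Met1 replicate 1 the 6 became 12, and without Met1 replicate 3 the 4 became 11.

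**Figure D3:**
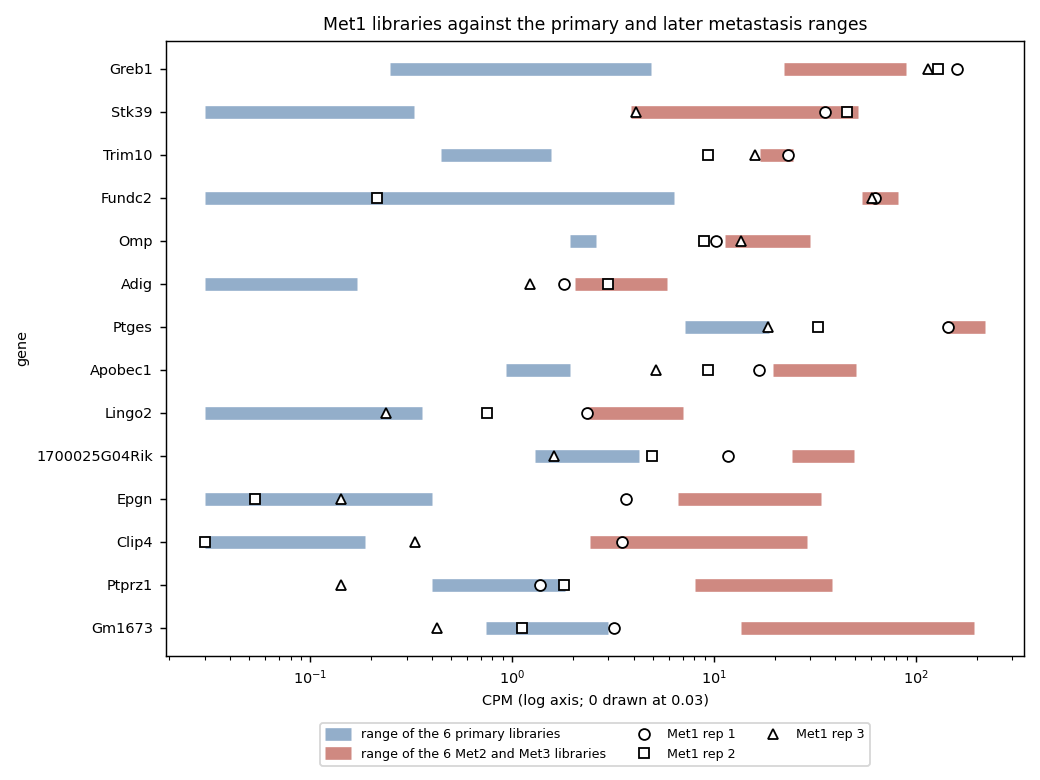
CPM on a log axis for 14 genes of the set; blue bars span the 6 primary libraries, red bars the 6 later metastasis libraries, and open symbols are the 3 Met1 libraries (0 CPM drawn at 0.03). Met1 lies right of the red bar for Greb1, within it for Stk39, and in or left of the blue bar for Ptprz1.

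Differences inside the kinds of line were tested by edgeR's quasi-likelihood test over 14925 genes. The rule did not compare the rounds with each other, but every library of both rounds had to meet its limits. Genes with strong differences between rounds could fail it, so the counts of calls among the 15 depend partly on this choice. All 15 genes passed the low-count filter. In Met3 against Met2, 0 of the 15 were called, beside 0.275% of all genes, and 0 had an unadjusted p under 0.05, beside 2157 genes of all. DESeq2 and limma-voom called 0 of the 15, and 588 and 4 genes of all. Of the 15, 7 were higher and 8 lower in Met3, with a median log2 change of -0.04 against -0.01 for all genes. The change ran from -1.03 for Epgn (SE 1.01, adjusted p = 0.66) to 1.31 for Gm1673 (SE 0.62, adjusted p = 0.356, the lowest of the set).

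In Primary3 against Primary2, 0 of the 15 were called by edgeR, beside 0% of all genes, and 0 had an unadjusted p under 0.05, beside 1063 of all. DESeq2 called 0 of the 15 and 44 of all genes, and limma-voom 0 and 1. The changes ran from -2.42 for Lingo2, which rests on 9 counts against 1, to 3.76 for Fundc2 (SE 1.97, adjusted p = 0.728), which rests on Primary3 replicate 3. Trim10 had the lowest adjusted p (0.713, log2 change 0.84, SE 0.40). The difference between rounds, (Met3 minus Primary3) minus (Met2 minus Primary2), also gave 0 calls among the 15 and 0% among all genes in edgeR, with 0 of the 15 and 1817 of all genes at an unadjusted p under 0.05. DESeq2 called 0 of the 15 and 225 of all genes, and limma-voom called 0 and 0. It ran from -3.99 for Fundc2 (SE 2.33, adjusted p = 0.506) to 2.37 for Lingo2 (SE 1.62, adjusted p = 0.571), and the lowest adjusted p was 0.436 for Apobec1 (1.16, SE 0.57). With SE values of this size, which are approximate for genes with few counts, differences of several fold between rounds could go uncalled for the low genes. These values therefore do not show that the rounds are alike.

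The 14 genes described one by one were spread over 9 chromosomes. Chromosome 2 held 3 (Ptges, Stk39 and Adig), chromosomes 5, 6 and 17 held 2 each, and chromosomes 1, 4, 7, 12 and X held 1 each. No pair of the set lay within 500 kb. The closest pair of the 14, Trim10 and Clip4, was 34.9 Mb apart, followed by Ptges and Stk39 at 37.3 Mb.

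The neighbourhood of each gene was described through the 2 nearest protein-coding genes on each side, 60 in all, of which 39 had enough counts for the test of later metastases against primary lines and 21 did not. This test was added after the design was fixed. Of the 39, 18 were called (46.2%, beside 30.4% of all genes), 14 higher (35.9%, beside 14.3%) and 4 lower (10.3%, beside 16.1%). Their median log2 change was 0.19, against 0.01 for all genes. At least 1 neighbour was higher for 11 of the 15 genes, and the matching share over all genes was not computed. Of the other 4, Greb1 and Ptges had none, and Apobec1 and Stk39 had no neighbour with enough counts for the test. The only higher neighbour of Clip4, Ypel5, lay 972 kb away. Its call and those of Trim26 and Trim31 near Trim10 were lost in 9 or 10 of 19 alternatives. No test compared the shares of called neighbours with those of all genes.

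Nat8l, the N-acetylaspartate synthase gene 11 kb from Gm1673, rose by 5.74 (log2, SE 0.75, adjusted p = 0.000228). Nat8l had 0.111, 0.0469 and 0.102 CPM in Primary2 and 0.850, 0.248 and 0.229 CPM in Primary3. Its Met1 values were 0.0549, 0 and 0.0948 CPM, its Met2 values 0.396, 4.69 and 12.4 CPM, and its Met3 values 25.3, 11 and 15.5 CPM. Met2 replicate 1, where Gm1673 too was lowest, lay within the primary range, and Met1 was as low as the primary lines. Both genes were thus low in Met1 and in the primary lines and high in Met3. The other neighbours of Gm1673, Nelfa, Nsd2 and Poln, did not pass the test (adjusted p = 0.063, 0.305 and 0.469).

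F8, the coagulation factor VIII gene, runs from the other strand at the Fundc2 start, and the gene bodies overlap by 217 bases without a shared exon base, so that the last bases of the Fundc2 window printed above lie in both gene bodies. F8 had 0, 0 and 0 counts in Primary2 and 0, 0 and 1 in Primary3, that 1 count being in the replicate with the highest primary Fundc2 level. It had 13, 0 and 16 counts in Met1, 13, 6 and 4 in Met2 and 11, 9 and 5 in Met3. Over the later metastases this was 48 counts against 1, a ratio of CPM of 49.7 with a 95% exact binomial interval of 8.50 to 2002 that covers counting error only (edgeR adjusted p = 0.00459). In the 8 libraries with Fundc2 above 50 CPM, F8 had 4 to 16 counts, and in the other 7 it had 0 or 1. Met1 replicate 2, where Fundc2 was nearly absent, had no F8 count. Whether reads from the Fundc2 locus reach these few F8 counts was not tested, and the use of strand in counting is not given in the sources used here. The genes on the far side of Fundc2, Cmc4 and Mtcp1, changed by -0.44 (SE 0.29, adjusted p = 0.271) and -0.46 (SE 0.18, adjusted p = 0.065).

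Epgn sits in a cluster of EGF-family genes, and its 2 downstream neighbours moved in opposite directions. Areg, 104 kb away, had 18.8, 27.6 and 16.4 CPM in Primary2, 16.4, 48.9 and 35.5 CPM in Primary3, 81.8, 131 and 40.9 CPM in Met1, 124, 139 and 167 CPM in Met2 and 320, 433 and 192 CPM in Met3. All later metastasis libraries exceeded all primary libraries, and Met1 overlapped both. Ereg, 39.4 kb away and between the other pair, had 2.55 to 6.23 CPM in the primary libraries and 0 to 0.160 CPM in the later metastases, 3 of which had no count. Ereg in Met1 was 0.714, 9.13 and 4.07 CPM, so the library with the most Epgn, replicate 1, had the least Ereg. Cxcl2, a chemokine gene on the upstream side, fell by 1.44 (log2, SE 0.45, adjusted p = 0.0292), a call lost in 5 of 19 alternatives (highest adjusted p = 0.0799), and the nearest gene, Mthfd2l, changed by -0.11 (SE 0.23, adjusted p = 0.748).

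Aass, a lysine breakdown enzyme gene 19.3 kb from Ptprz1, rose by 3.37 (SE 0.95, adjusted p = 0.0181), a call that stood at the limit without Primary3 replicate 3 (adjusted p = 0.05), and the gene stayed at or below 0.853 CPM in every later metastasis library. Trim31, 20.3 kb from Trim10, rose by 2.40 (SE 0.76, adjusted p = 0.0309), and this call was lost in 9 of 19 alternatives (highest adjusted p = 0.142). Near 1700025G04Rik, Fam129a rose by 1.41 (SE 0.27, adjusted p = 0.00227) and Tsen15 by 0.62 (SE 0.14, adjusted p = 0.00507). Arhgap40, 4.60 kb from Adig, rose by 1.0 (SE 0.22, adjusted p = 0.00442), and C9orf72, 480 kb from Lingo2, by 0.95 (SE 0.25, adjusted p = 0.0126). In Met2 replicate 1, Fam129a (83.9 CPM) and Arhgap40 (17.8 CPM) lay below their highest primary values (106 and 24.5 CPM). Edem3, Ypel5 and Trim26 rose by 0.30, 0.44 and 0.40, and each of these calls was lost in 9 or 10 of 19 alternatives. Myo7a, beside Omp, fell by 0.89 (SE 0.23, adjusted p = 0.0111) and Tor1b, beside Ptges, fell by 0.42 (SE 0.07, adjusted p = 0.00123). All 4 neighbours of Stk39 and all 4 of Apobec1 had too few counts to be tested.

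**Figure D4:**
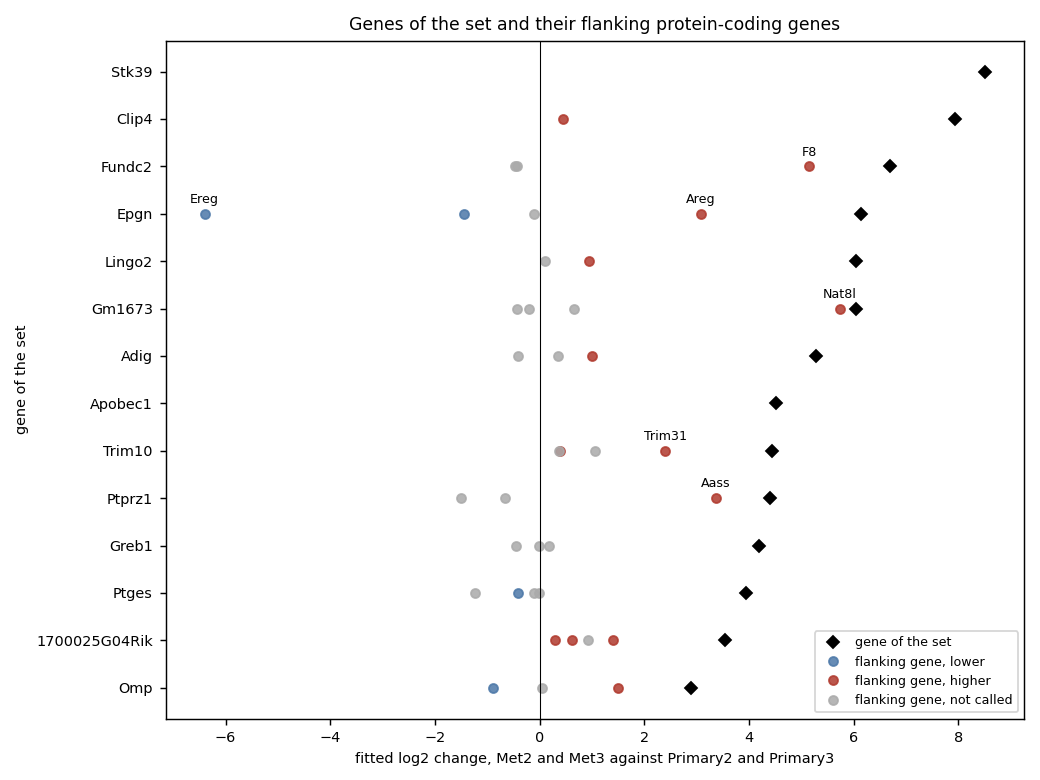
Fitted log2 change of later metastases against primary lines for 14 genes of the set (black diamonds, a description) and for their tested flanking protein-coding genes (circles; red higher, blue lower, grey not called by edgeR at adjusted p under 0.05). Nat8l lies at 5.74 beside Gm1673 at 6.04 and F8 at 5.15 beside Fundc2 at 6.70, while Ereg lies at -6.40 beside Epgn at 6.14.

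The RefSeq windows matched to the set had a lower median CpG ratio than those of all genes, but not all of them lie at the gene start. The ratio of observed to expected CpG had a median of 0.329 over the 17 windows of the set, 0.590 over 20082 windows of all protein-coding genes and 0.784 over 10012 windows of genes with at least 2 CPM in all 6 later metastasis libraries. A ratio of 0.6 or more, a usual mark of CpG islands, was found in 4 of 17 windows (23.5%), against 49.3% and 74.6%. The 4 windows belonged to Stk39 (1.02), Gm1673 (0.860), 1700025G04Rik (0.791) and Ptprz1 (0.767), while the other 9 genes had all windows below 0.6. Trim10 had a ratio of 0.0918, and a second Lingo2 window had no CpG at all. Of the 9 genes without such a window, Apobec1 (0.514), Fundc2 (0.512) and the upstream window of Greb1 (0.594) came closest. No test was made of this difference, and no window was matched for Omp and 1 other gene. The windows of Clip4, Lingo2 and Ptges and the first Greb1 window lie inside the gene bodies, beyond the GENCODE gene start. Their ratios ran from 0 to 0.371, and they are counted in the median and shares above. No summary was made of the windows at gene starts alone.

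**Figure D5:**
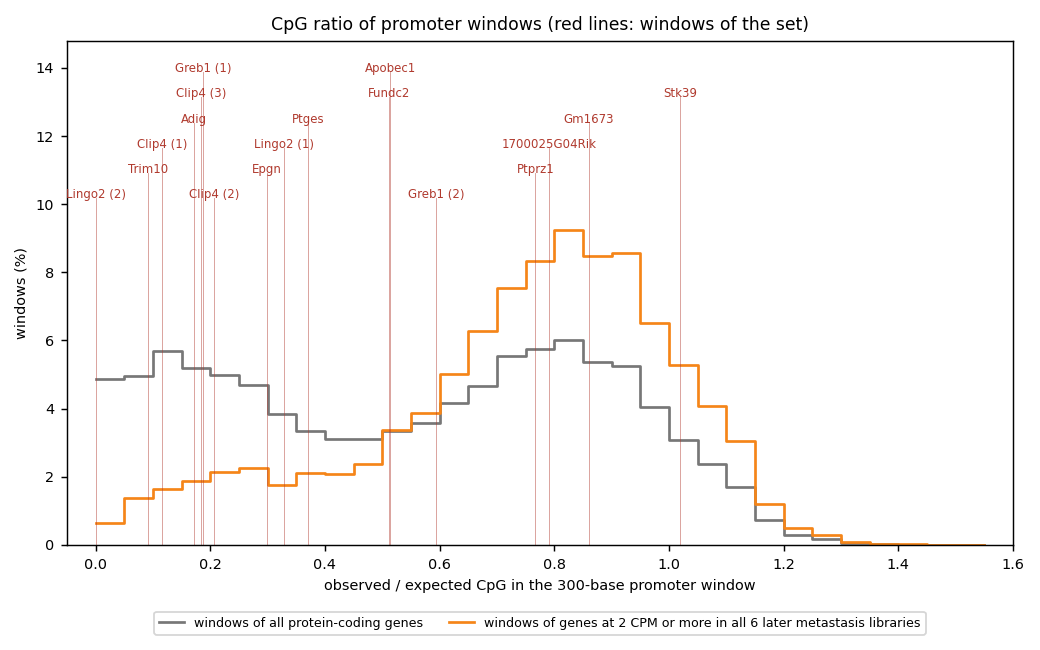
Distribution of the ratio of observed to expected CpG in 300-base promoter windows of all protein-coding genes (grey) and of genes with at least 2 CPM in all 6 later metastasis libraries (orange), in percent of windows; thin lines mark the 17 windows of the set, with the window number in brackets for genes with several. Of the 17 lines, 13 lie left of 0.6, whereas 74.6% of the windows of expressed genes lie at 0.6 or above. The lines of Clip4, Lingo2, Ptges and Greb1 (1) are windows inside the gene bodies, beyond the GENCODE gene start.

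A set of 9 short motifs were searched on both strands of the windows, as letters only. CTTTGA, the core of TCF/LEF sites, was in 5 of 17 windows, from 5 genes (Adig, Clip4, Epgn, Greb1 and Lingo2), and in 14.3% of all windows and 11.2% of windows of expressed genes. GATAA, the core of GATA sites, was in 4 windows (Apobec1, Clip4, Epgn and Trim10), 22.0% of all windows and 15.6% of those of expressed genes. TATAAA was in the windows of Apobec1 and Epgn, where it overlaps the homeobox letters TTTATN, and in 12.1% of all windows and 6.59% of those of expressed genes. TTTATN was in 4 windows of 3 genes (Apobec1, Epgn and Lingo2) and in 34.0% and 24.1%. TGANTCA, the letters of AP-1 sites, was in the Trim10 window and in 6.99% and 4.91%. GGGCGG, the GC box, was in 4 windows (1700025G04Rik, Ptges, Ptprz1 and Stk39) and in 47.9% and 65.4%. The forkhead letters TGTTTAC, the E-box CACGTG and the oestrogen response element were in no window of the set and in 2.97%, 8.05% and 0.0498% of all windows. A match of such letters is no binding site, and no match says only that the letters are not in this window.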

How the data were processed

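RNA was measured in 15 poly(A)-selected libraries of organoids. The authors quantified reads with Salmon 1.3.0 against mm10, per the submitters' processing notes, and deposited a table of estimated counts for 54418 gene IDs, in which 0 entries had decimals. The step from transcripts to genes, the use of strand and filtering are not described in the labels. For 54166 of the IDs, GENCODE M21 (build GRCm38) supplied names, positions and biotypes.

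CPM was computed from each column's total. The genes, lists and neighbours were chosen with earlier results of these data known. All genes of the set may be named, since fewer than 60 met the rule, but some results, 1 gene of the set among them, are not reported here. Counts over the set include it. Neighbours and genes of lists were named where they passed the test or belong to the pathway, and several were chosen after their values were seen. Differences were tested with edgeR 4.0.16 in R 4.3.3 (TMM, filterByExpr by group, quasi-likelihood F test, group means, all 15 libraries) over 14925 genes, with Benjamini-Hochberg adjustment and a threshold of 0.05. DESeq2 1.42.0 and limma 3.58.1 (voom) were alternatives. The edgeR test was also run on simulated data, with results not given here. A log2 change is that fit's value, which for genes with few counts depends on the prior count. Figures were drawn with matplotlib 3.10.9. Other alternatives were TMM-scaled library sizes, other limits of the rule, no low-count filter, fits of the compared groups only, a replicate block and leaving out each library.

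Samples of different groups that carry the same replicate number deviated together weakly or not at all. Over 30 such pairs the correlation of deviations from the group means ran from -0.126 to 0.268, with 8 over 0.1, so the numbers were not taken as pairs. Between Primary2 and Primary3 the correlations were all positive (0.22, 0.121 and 0.0686 for replicates 1, 2 and 3). No pair of replicates had identical values.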

Additional observations from a re-analysis of the deposited data

How the results depend on the processing

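The set is the outcome of its limits. Allowing a primary level of up to 1 part in 2 of the lowest metastasis value gave 34 genes, and requiring 1 part in 8 or less gave 7. Round 2 alone gave 25, round 3 alone 85, Met1 counted among the metastases 3, and the mirrored rule 61. Leaving out each library in turn gave 15 to 34, with 34 without Met2 replicate 1. TMM-scaled library sizes, or leaving out the ribosomal RNA gene, kept the same 15 genes. In Met1, TMM scaling left 0 genes at or below the highest primary value and 1 at or above the lowest later metastasis value. Leaving out a Met1 library gave 1 to 4 for the former, with 4 without replicate 1, and 2 to 3 for the latter. The 15 genes gave 0 calls in each of the 3 tested comparisons under every alternative run, and over 669 values of single genes the lowest adjusted p was 0.204 and 0 changed sign with a call. The replicate block called 0 of the 15 genes in any of these comparisons and 18 flanking genes. With the block not a design feature, libraries correlated best with their own number in 2 of 6 cases (Met2 and Met3) and 4 of 6 (Primary2 and Primary3), and in 0 of 6 between Met2 and Primary2 or Met3 and Primary3. Flanking genes called ranged from 14 to 19 when each library was left out. In all, 6 genes had primary libraries at 0 counts, where 3 counts are 0.141 to 0.212 CPM. The ratio uses the highest primary library, which held 3 to 7 counts for Adig, Clip4, Epgn, Lingo2 and Stk39, so their ratios rest on few counts. For Fundc2 that library held 111 counts.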
